A study of Drosophila melanogaster with 9 samples.

Results

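The wild-type transcript profile of Drosophila melanogaster was described from the 3 wild-type arrays of a series of 9 Affymetrix Drosophila_2 arrays. The other arrays, from mutants of Oga and sxc, were not used. The 3 arrays carry the genotype WildType, are numbered 1 to 3 and were made from total RNA with a biotin label. The labels give no strain, sex, age, stage, tissue or cell line for them, and the title of the series refers to oogenesis.

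The level of a gene is the mean of its log2 values over the 3 arrays, taken from the gene's brightest probe set where it had several, and 11982 genes were measured. A gene is called bright here if its level was at or above the 75th percentile over all genes (10.41 on the log2 scale), which holds for 25% of genes. A gene is called dim if its level was at or below the 25th percentile (5.19), which also holds for 25% of genes. The 90th percentile lay at 11.83, with 10% of genes at or above it. A list of genes is called bright or dim if it had at least 3 measured members and over 50% of them were bright or dim. The brightness of a probe set depends on its probes as well as on the amount of transcript. The counts below therefore describe lists against the same array and are not ratios of transcript between genes. With 1 group there was no test, and in RNA from many cells a smaller number of cells of a type and less RNA per cell cannot be told apart.

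Drosophila haemocytes are the blood cells of the fly. Plasmatocytes, the most common kind, engulf microbes and dying cells and secrete much of the basement membrane, the sheet of collagen IV, laminin and associated proteins that lines the organs. Crystal cells carry prophenoloxidase, the precursor of the melanin-forming enzyme, and lamellocytes wrap parasites. Cultured Drosophila lines of haemocyte character, such as Schneider 2, also express many of these genes. O-GlcNAc is a single sugar that one enzyme attaches to nuclear and cytoplasmic proteins and another removes.

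The arrays were closely alike. Their medians over all probe sets lay between 5.98 and 6.01, and pairs of arrays correlated at 0.998 to 0.999 over genes, a description with no test since genes share each array. The median SD of a gene over the 3 arrays was 0.08, the 90th percentile of the SDs was 0.17, and 0 genes had a range over 1 log2 unit. The 11322 genes that lay in the same class (bright, dim or between) on each of the 3 arrays made up 94.5% of all genes. Nothing in the labels states that the replicates are separate animals or cultures, so this spread may be technical, and with 3 arrays the precision of each level is limited.

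Gene levels fell into a lower and an upper group. The most populated bin of the lower group, 4.5 to 5.0, held 1424 genes, and that of the upper group, 10 to 10.5, held 758 genes. The bin between them with the fewest genes, 7.5 to 8.0, held 268. Below it lay 5993 genes (50%) and above it 5721 genes (47.7%). The 17 Tag control probe sets, designed to match no fly transcript, had means of 3.98 to 5.68 with a median of 4.89. There were 4133 genes (34.5%) at or below the brightest of these controls, and for such genes a level cannot be told apart from that of a probe set without target.

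**Figure D1:**
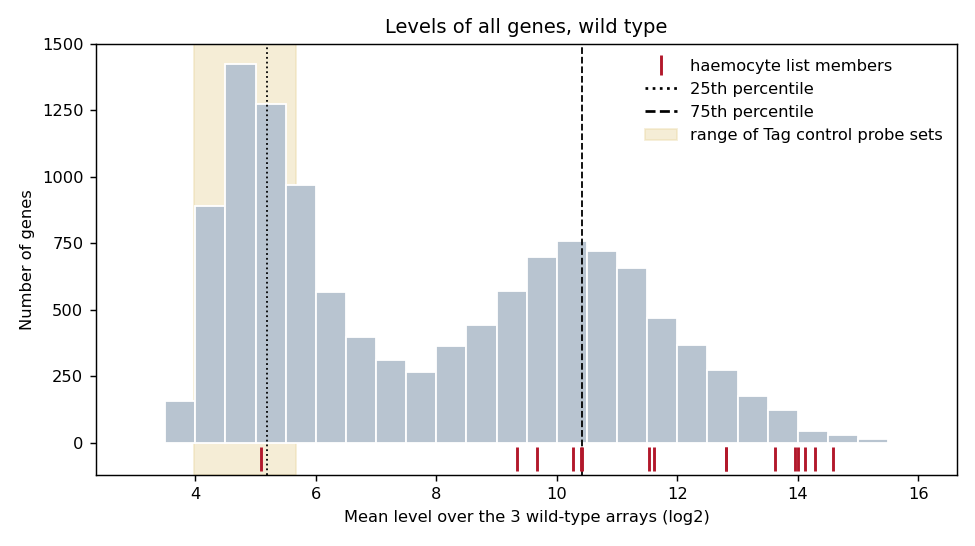
Number of genes by mean level over the 3 wild-type arrays, in bins of 0.5 on the log2 scale. Dotted and dashed lines mark the 25th percentile (5.19) and the 75th percentile (10.41), shading marks the range of the 17 Tag controls (3.98 to 5.68), and ticks mark the 16 haemocyte genes, of which 10 lie to the right of the dashed line and 1 to the left of the dotted line.

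Among 30 lists of tissue and stage markers, the haemocyte list was bright, 9 lists were dim and 20 were neither. These lists were made with earlier results of these data known, so their counts are descriptions and not independent findings. The haemocyte list had 16 of 16 members measured, of which 10 were bright (62.5%, against 25% of all genes) and 8 were above the 90th percentile. Its median level was 12.21, against 7.49 over all genes, and the median was 12.30, 12.16 and 12.24 on the 3 arrays. The other tissue lists together held 354 distinct measured genes, of which 18 were bright (5.08%) and 153 dim (43.2%), with a median of 5.38. The lists of cuticle, muscle, neuron, midgut and photoreceptor genes held 107 measured genes, of which 2 were bright and 39 dim, with a median of 5.52. Left out are genes without a probe set of a single gene, among them 9 of 18 photoreceptor and 8 of 21 larval cuticle genes. Which cells gave the RNA was not tested: the labels name none, and these lists give levels, not numbers of cells.

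**Figure D2:**
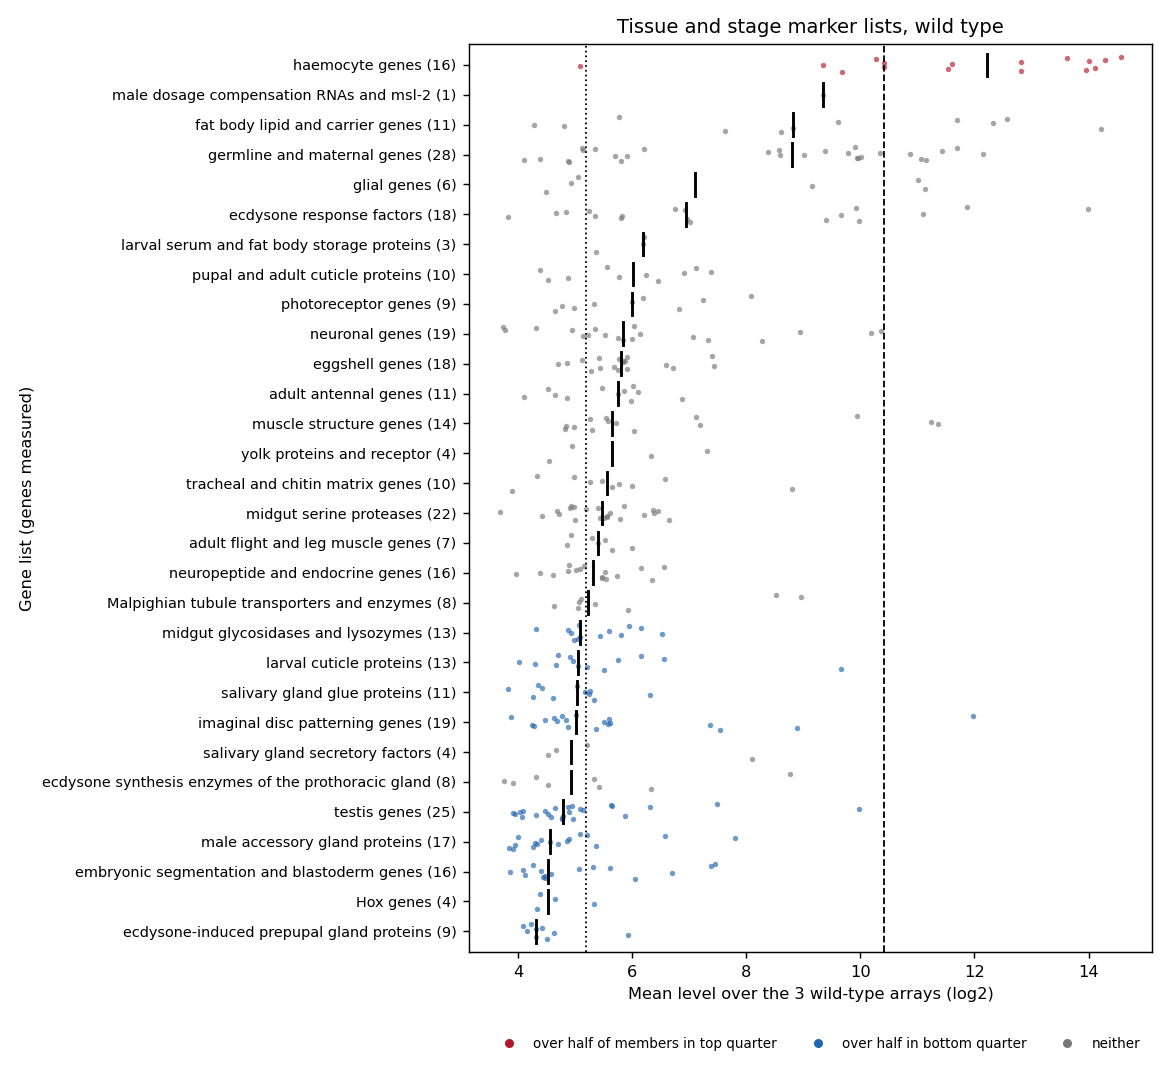
Mean level (log2) of each measured member of the 30 tissue and stage lists, 1 point per gene, with the list median as a black bar and the 25th and 75th percentiles of all genes as dotted and dashed lines. The haemocyte list (median 12.21, red) is the list with over 50% of its members right of the dashed line, and the 9 lists in blue have over 50% of their members left of the dotted line.

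The brightest members of the haemocyte list were genes of ferritin, collagen IV, Hemese and peroxidasin. Fer1HCH, the ferritin heavy chain, which many cells use, had 14.55, 14.59 and 14.59 on the 3 arrays. Col4a1, a collagen IV chain, had 14.40, 14.15 and 14.31, and vkg, the other collagen IV chain, had 14.13, 13.83 and 14.05. Every array placed these genes above the 90th percentile. He (Hemese), a transmembrane protein of haemocytes, had 14.01, 14.14 and 14.20. Pxn (peroxidasin), an enzyme of the basement membrane, had 14.02, 13.80 and 14.05 on its brighter probe set. The other Pxn probe set had a mean of 7.30, so the brightness of Pxn rests on the choice between them.

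Of the phagocytic receptors of the list, Sr-CI, NimC1 and eater were above the 90th percentile on every array. Sr-CI, a scavenger receptor, had 13.64, 13.62 and 13.62. NimC1, a phagocytosis receptor of plasmatocytes, had 12.94, 12.87 and 12.63, and eater, a receptor for bacteria, had 12.74, 12.81 and 12.88. The receptor for dying cells, crq (croquemort), had 10.16, 10.42 and 10.65, so that arrays lay on both sides of the bright threshold and its mean of 10.41 fell just under it. The clotting factor gene Hml, much used as a haemocyte marker, lay lower, at 9.77, 9.68 and 9.58, and the matrix protein gene Ppn (papilin) had 10.40, 10.25 and 10.15.

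Genes of the rarer blood cells spread widely. PPO2, a prophenoloxidase of crystal cells, had 11.87, 11.36 and 11.61, and was bright on every array. PPO1, the other crystal cell prophenoloxidase, had 9.44, 9.19 and 9.39, above the median over all genes. PPO3, the prophenoloxidase of lamellocytes, had 10.48, 10.48 and 10.26, with a mean just under the bright threshold. The Runx factor gene lz (lozenge), which directs crystal cell fate, had 4.99, 5.12 and 5.14 and was the dim member of the list. The GATA factor gene srp (serpent), needed for blood cell formation, had 11.23, 11.52 and 11.84. It was bright on every array and had the widest spread of the list (SD 0.31).

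**Figure D3:**
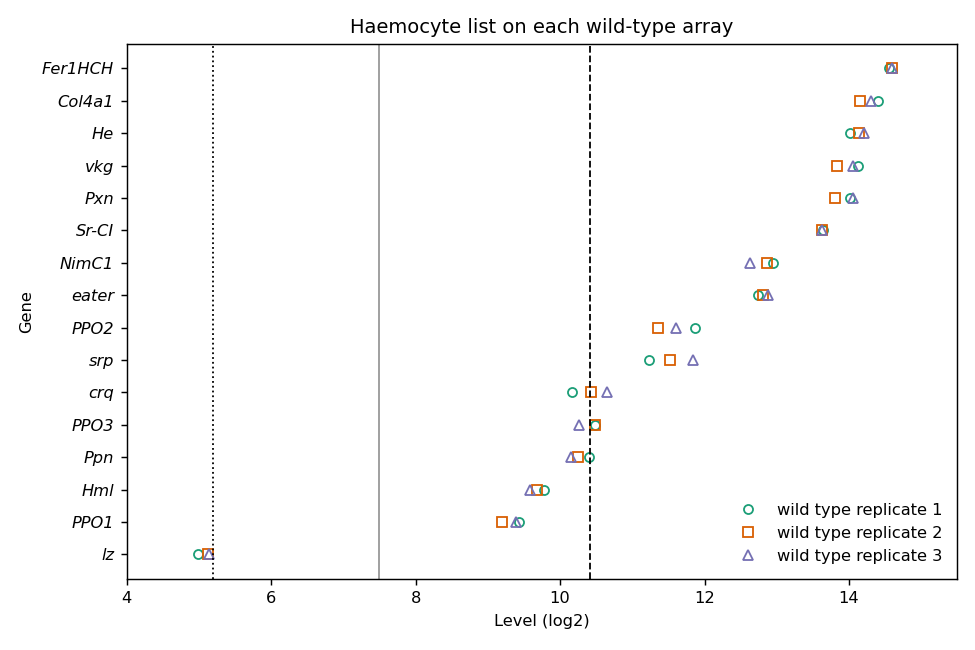
Level (log2) of the 16 haemocyte genes on each of the 3 wild-type arrays, with 1 symbol per array, ordered by mean. The grey line is the median over all genes (7.49) and the dotted and dashed lines are their 25th and 75th percentiles. Symbols of a gene lie close together next to the distances between genes, and lz lies apart at 4.99 to 5.14.

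The haemocyte list was made with earlier results of these data known. Further lists of blood cell genes were drawn up after the levels themselves had been seen. They are given as counts and levels, with no call of a list as bright or dim. The basement membrane and matrix list had 10 of 13 members bright and a median of 13.31. It shares 4 genes with the haemocyte list, and of the 9 others 7 were bright. SPARC, a collagen-binding glycoprotein, had 15.05, 15.03 and 15.04, the highest level of any gene outside the ribosomal protein list. The laminin chains LanA, LanB1 and LanB2 had means of 13.31, 13.37 and 12.47, and the glycoprotein gene Glt (glutactin) had 13.61. Tig (tiggrin) had 11.22 and trol (perlecan) 10.48, close to the bright threshold. The 3 members that were not bright were Ppn at 10.27, just under the threshold, prc (pericardin), a matrix protein of the heart, at 5.50, and Ndg (nidogen), which was dim at 5.19.

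The list of Nimrod, scavenger and phagocytic receptors had 9 of 19 members bright, 1 dim and a median of 10.41. It shares 4 genes with the haemocyte list, and 6 of the 15 others were bright. Draper (drpr), the engulfment receptor, had a mean of 12.48, NimB5 had 12.57, NimB4 had 11.95 and NimB2 had 11.52. Sr-CIV had 11.46 and the CD36-related receptor gene pes had 11.13, while Sr-CII was dim at 4.31 and NimC2 had 5.59. He and NimC1 are adjacent genes on chromosome arm 2L, in a run of Nimrod genes. NimB1 had 10.23 and NimB3 10.29 there, both just under the bright threshold, and the neighbouring cytochrome P450 gene Cyp28a5 had 11.86. Col4a1 and vkg also adjoin each other on 2L.

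Transcription factors of blood cells were split. The GATA factor gene pnr (pannier) had 12.97, 12.93 and 13.05, the zinc finger gene zfh1 had 11.78, 11.97 and 12.19, and Stat92E, the factor of JAK/STAT signalling, had 11.44, 11.51 and 11.86. These levels were bright on every array. The GATA cofactor gene ush lay between at 10.35. Those at the dim end were gcm at 4.93, gcm2 at 4.82 and kn at 4.82, the last a factor of the larval lymph gland and of lamellocyte formation. In all, 4 of 11 factors were bright and 4 were dim. The list shares 2 genes with the haemocyte list, and of the 9 others 3 were bright and 3 dim. The receptor gene Pvr, which acts in haemocyte survival and migration, had a mean of 12.63. Its ligand genes Pvf2, Pvf1 and Pvf3 had means of 11.01, 5.53 and 5.07.

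Of the lamellocyte list 2 of 6 members were bright and 0 dim. They were cher (filamin) at 13.06 and msn, a kinase gene, at 11.75, both of which other cells also use. The lamellocyte marker atilla had 7.52, near the median over all genes. The lamellocyte list shares 1 gene with the haemocyte list, and 2 of the 5 others were bright. Of the crystal cell list 1 of 4 members was bright, PPO2, and 1 dim, lz. It shares 3 genes with the haemocyte list, PPO2 and lz among them, and the 1 other had 5.51. Integrin subunits, also on a list added later, had 1 of 7 members bright and 1 dim, with a median of 7.20.

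Imaginal disc growth factors and lysosomal genes, both on lists added later, had most members bright. The imaginal disc growth factors, chitinase-like secreted proteins, had 4 of 6 members bright. Idgf6 had 14.74, 14.74 and 14.76, Idgf2 had 14.72, 14.69 and 14.78, and Idgf1 had a mean of 14.14. Idgf3 had 14.35 on its brighter probe set and 9.45 on the other. Idgf4 had 8.69 and Idgf5 was dim at 4.91. All 11 genes of the lysosomal list were bright. The proteases CtsL1, cathD and CtsB had means of 14.91, 14.48 and 14.13, the sterol carrier gene Npc2a had 14.65, and the membrane protein gene Lamp1 had 14.33. Tep4, a thioester-containing protein, had 13.58, whereas Tep3 had 6.39.

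The 30 brightest genes outside the ribosomal protein list had levels from 14.29 (14-3-3epsilon) to 15.04 (SPARC). They included CtsL1, cathD, Npc2a, Lamp1, Idgf2, Idgf3, Idgf6 and Fer1HCH from the groups above. RpL37-1, at 15.01, encodes a ribosomal protein but its symbol fell outside that list. Others serve protein synthesis and folding: Rack1 (14.78), eEF5 (14.68), eEF1gamma (14.42), eIF1 (14.38), Nacalpha (14.45), Hsc70-4 (14.65), ERp60 (14.44), Cyp1 (14.83) and Fkbp12 (14.51). The actin regulators tsr (cofilin) and Moe (moesin) had 14.90 and 14.30. Nplp2, a neuropeptide-like precursor, had 14.93, 14.96 and 14.95. Also among them were Tctp (14.52), Sumo (14.36), CG32276 (14.44) and Ip259 (14.30). CG5953 had 14.89 and ATPsyngamma 14.31 on their brighter probe sets, and 11.49 and 13.35 on the others. The calcium-binding protein gene regucalcin had 14.52 on its brightest probe set, but 13.99 and 5.94 on the others.

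The ovarian lists were not bright. Of 18 measured eggshell genes and 4 genes of yolk proteins and their receptor, 0 were bright and 5 were dim, with a median of 5.80. The yolk protein gene Yp1 had 4.61, 4.52 and 4.48, within the range of the Tag controls. Yp2 had 6.26, 6.39 and 6.36, and Yp3 had 7.46, 7.19 and 7.30, under the median over all genes. The yolk receptor gene yl had 4.74, 4.98 and 5.12. The brightest eggshell gene was the chorion gene Cp38 at 7.43, followed by clos at 7.41, and the vitelline membrane gene Vm26Ac was lowest at 4.69.

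Germline and maternal genes ranged from 4.11 to 12.16: 6 of 28 measured were bright and 6 dim, with a median of 8.79. The bright ones were tud, a Tudor-domain gene of the germ plasm (12.21, 12.24 and 12.02), gus (mean 11.69), squ (11.42), grk (11.14), aub (11.07) and mael (10.88). Among the dim ones were vas, a germline helicase, at 5.01, 4.79 and 4.86, bam at 4.87, otu at 4.38 and orb at 4.11. The maternal gene osk, which assembles the germ plasm, had 5.96, 5.67 and 5.76. Of 15 proteins of the piRNA pathway, which silences transposons in the gonad, 4 were bright and 1 dim, with a median of 9.96. The Argonaute genes piwi and AGO3 had 9.96 and 9.95, and rhi, which marks piRNA source loci, had 9.78. The piRNA list was added later, and its 4 bright members are also in the germline list.

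Genes of the male reproductive system were dim. Of 25 testis genes 0 were bright and 19 dim, and the median was 4.79; the exception at the top was mia at 9.97, and dj was lowest at 3.91. Of 17 accessory gland genes 0 were bright and 13 dim, with Acp95EF highest at 7.81 and Acp26Ab lowest at 3.84. The 7 measured genes of the Y chromosome were all dim, at 3.86 to 5.14. The dosage compensation gene msl-2 had 9.27, 9.34 and 9.41, and the roX1 and roX2 RNAs of the same list were not measured. The sex determination genes Sxl and tra had means of 9.97 and 10.18, and dsx was dim at 4.70. Of 8 dosage compensation and sex determination genes, a list added later, 0 were bright and 1 dim, with a median of 9.40.

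Several lists of larval, prepupal and embryonic markers were dim. The glue proteins of the larval salivary gland had 7 of 11 members dim and a highest level of 6.31 (Sgs5). The larval cuticle list had 7 of 13 measured members dim, with Lcp65Aa apart at 9.66. The other 8 of its 21 genes, among them Lcp1 to Lcp4, were not measured. The pupal and adult cuticle list had 3 of 10 dim, 0 bright and a median of 6.01. The prepupal Eig71E list had 8 of 9 dim and a median of 4.31, the lowest of all lists. Segmentation and blastoderm genes had 10 of 16 dim, with a median of 4.52. Disc patterning genes had 10 of 19 dim, and their bright member was zfh1, described above. Of the Hox genes 3 of 4 measured were dim: Scr had 4.65, Antp 4.38 and pb 4.33, while Dfd had 5.33. All 4 lay at or below the brightest Tag control.

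Fat body genes were mixed. The storage protein genes Fbp2, Fbp1 and Lsp2 had means of 6.21, 6.18 and 5.36, and the other genes of that list were not measured by a probe set of a single gene. Of 11 lipid and carrier genes 4 were bright: FASN1, a fatty acid synthase (14.22), GNBP3, a recognition protein for fungi (12.57), Desat1, a fatty acid desaturase (12.33), and bmm, a triglyceride lipase (11.69). Members of this list, like those of the haemocyte list, can be made by other cells too, and which cells gave these levels was not tested. apolpp, the main lipoprotein of the haemolymph, had 8.80, 8.63 and 8.41.

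Ecdysone response genes were mixed, with 3 of 18 bright and 3 dim. ImpL2, a secreted binding protein of insulin-like peptides, had 14.04, 14.03 and 13.91. Cth, an enzyme of cysteine synthesis, had a mean of 11.88, and the nuclear receptor gene ftz-f1 had 11.10. The subunits of the ecdysone receptor were not bright: EcR had 6.89, 6.92 and 7.22, and usp had a mean of 9.98. The nuclear receptor gene Hr3 was near the lowest of all genes at 3.81.

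Lists of gut, muscle and nerve had few members above the bright threshold. None of the 22 midgut serine proteases was bright, and Jon25Bii was highest at 6.64. The midgut glycosidases and lysozymes had 7 of 13 measured members dim, and 6 others were not measured. Of 14 measured muscle structure genes 2 were bright, bt (twitchin) at 11.37 and Zasp52 at 11.23. Another 5 of that list, among them Mhc and Act57B, were not measured. Mlc2, the myosin regulatory light chain of muscle, was dim at 4.82 and fln (flightin), of flight muscle, at 4.85. Of 19 neuronal genes 0 were bright. The synaptic genes Csp and unc-13 had 10.36 and 10.19, and elav had 8.36, 8.26 and 8.21, whereas ple, the dopamine synthesis enzyme, was dim at 3.74. Of 6 glial genes moody (11.13) and loco (11.01) were bright, while the glial factor gene repo was dim at 4.49. Photoreceptor genes had 0 of 9 measured members bright, with rdgA highest at 8.09. The other 9 of the 18 on that list, among them ninaE and Rh2 to Rh6, were not measured. Lists of tracheal (10 measured), Malpighian tubule (8), antennal (11), neuropeptide (16), flight and leg muscle (7), salivary secretory (4) and ecdysone synthesis (8) genes also had 0 bright members, with medians of 4.93 to 5.75.

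Among 18 gene classes 9 were bright, 2 were dim and 7 were neither. Cytosolic ribosomal proteins had 29 of 34 measured members bright, all 29 above the 90th percentile, and a median of 14.96. RpS29 had the highest level of any gene (15.22, 15.24 and 15.25), and the dim member was RpL10Aa at 4.98, a variant of a ribosomal protein gene. Only 34 of the 85 members had a probe set of a single gene. The list of translation elongation factors had 4 of 5 members bright, with eEF1alpha2 at 6.75. The initiation factor gene eIF4A was on that list and is among its bright members. Mitochondrial ribosomal proteins had 63 of 69 members bright but only 14 above the 90th percentile, with a median of 11.29.

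Energy metabolism and growth classes were bright as well. Glycolysis had 8 of 10 members bright, led by Eno (enolase) at 14.08 and Tpi at 13.97. Cell cycle and DNA replication genes had 10 of 18 measured members bright (55.6%) and 0 dim, with a median of 10.75. Their brightest were the nucleotide enzyme gene dUTPase (13.63, 13.59 and 13.76), PCNA, the sliding clamp of replication (12.81, 12.78 and 13.04), and RnrL, a subunit of ribonucleotide reductase (mean 12.10). CycE was lowest at 8.15. Another 9 of the 27 genes on that list, among them CycA, stg, Cdk1 and polo, were not measured. Of 15 heat shock genes 11 were not measured, among them the Hsp70 genes and Hsp83. The 3 bright ones of the 4 measured were Hsc70-4 (14.65), which cells make without heat shock, Hsp26 (12.98) and Hsp27 (12.29).

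**Figure D4:**
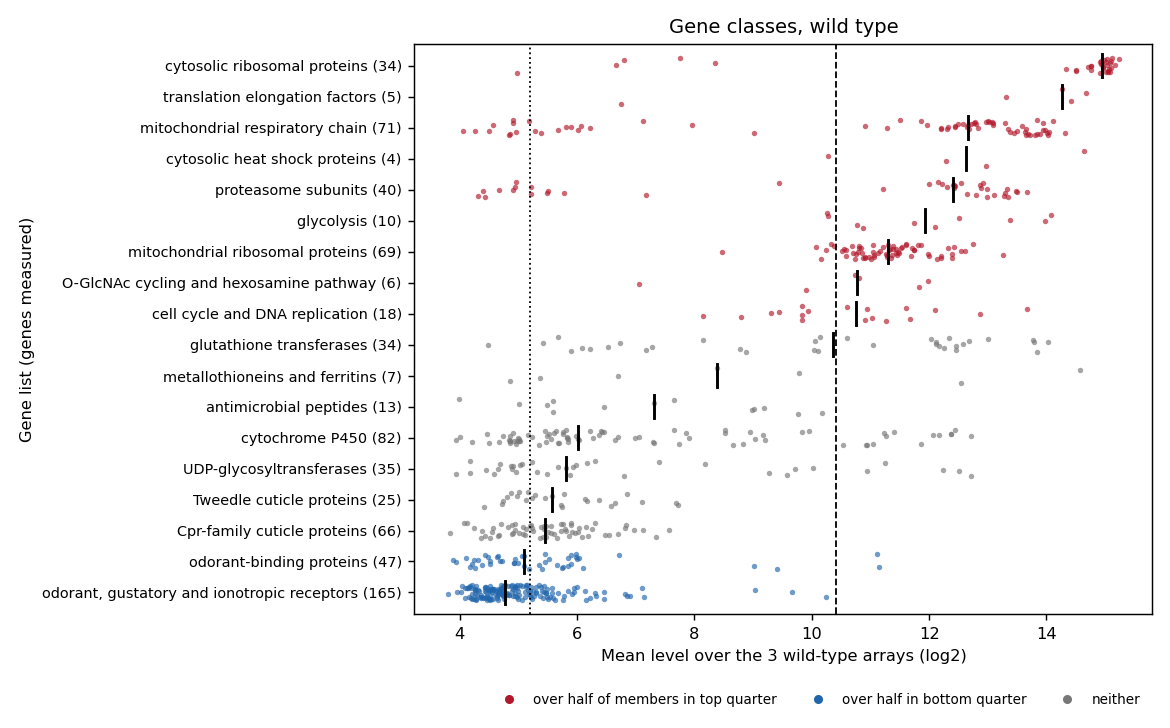
Mean level (log2) of each measured member of the 18 gene classes, 1 point per gene, with the class median as a black bar and the 25th and 75th percentiles of all genes as dotted and dashed lines. Ribosomal proteins lie at the top (median 14.96), the chemoreceptors at the bottom (median 4.78), and the proteasome and respiratory chain classes each have a bright and a dim cluster.

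The proteasome, which degrades proteins, and the mitochondrial respiratory chain each held many bright genes and a dim cluster made up largely of genes named as variants. Of 40 proteasome genes, the 14 named as variants of another subunit (suffix T or R, with or without a number) had 0 bright and 7 dim members and a median of 5.09. The other 26 subunits were all bright, with levels of 11.21 to 13.66 and a median of 12.83. Of 71 respiratory chain genes, the 14 named as variants (suffix L, with or without a number) had 0 bright and 7 dim members, levels of 4.06 to 6.22 and a median of 5.28. Among the other 57, 50 were bright and 3 dim, with a median of 12.97. Their levels ran from 4.25 to 14.31, so the lowest of them overlapped the variants. Proteasome variants such as Prosalpha4T1 (4.30) and Prosalpha3T (4.43) are known from the testis. The variant with the highest level was Rpt3R, at 9.44. The split by name was made after the levels had been seen.

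**Figure D5:**
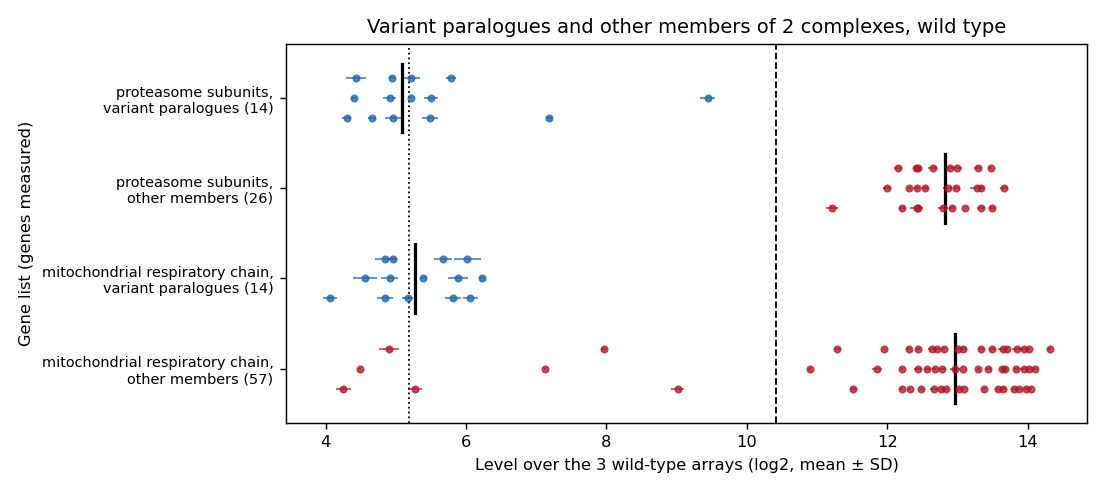
Level (log2, mean ± SD over the 3 wild-type arrays) of proteasome and respiratory chain genes, with variant paralogues in blue and the other members in red, list medians as black bars and the 25th and 75th percentiles of all genes as dotted and dashed lines. The medians are 5.09 for proteasome variants and 12.83 for the other proteasome subunits, 5.28 for respiratory chain variants and 12.97 for the other respiratory chain members.

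Chemosensory genes were dim. Of 165 measured odorant, gustatory and ionotropic receptors 0 were bright and 116 dim, and 143 lay at or below the brightest Tag control. The receptor with the highest level was Gr61a (10.47, 10.17 and 10.11), followed by Ir76a at 9.65. Of 47 odorant-binding proteins 25 were dim and 2 bright. These were Obp99c at a mean of 11.11 and Obp44a at 11.13, 11.53 and 10.78, the second of which was among the most variable genes between arrays.

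Detoxification families were uneven. Glutathione transferases had 17 of 34 members bright, 15 of them above the 90th percentile, and 1 dim. GstE6 had a mean of 14.03 and GstD1 13.84, whereas GstE14 had 4.49. Cytochrome P450 genes had 14 of 82 members bright and 21 dim, led by Cyp4e2 at 12.71. UDP-glycosyltransferases had 5 of 35 bright and 13 dim, with Ugt302C1 highest at 12.71. Neither cuticle family had a bright member, with 0 of 66 Cpr genes and 0 of 25 Tweedle genes.

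Most Toll pathway genes were bright, and none of the 13 measured antimicrobial peptide genes was; 10 of the 23 on that list were not measured. Of 8 genes of the Toll pathway, a list added later, 6 were bright: the ligand gene spz (12.53), the inhibitor gene cact (11.83), the NF-kappaB gene dl (11.43), the adaptor genes Myd88 (11.38) and tub (11.12), and the receptor gene Tl (11.29). The NF-kappaB gene Dif had 6.72. Of 8 Imd pathway genes, also added later, key (12.57) and Rel (11.61) were bright. Of the antimicrobial peptide genes measured 2 were dim, and the median was 7.31. CecB had 9.95, 10.39 and 10.18 and Drs, the antifungal drosomycin, had 8.87, 9.14 and 9.05.

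The genes whose mutants the series is about were both well above the Tag controls in wild type. sxc, the O-GlcNAc transferase, had 11.84, 11.87 and 11.79, and was bright. Oga, the enzyme that removes the sugar, had 10.13, 9.68 and 9.88, under the bright threshold, with an SD of 0.22. Of 6 measured genes of O-GlcNAc cycling and the hexosamine pathway, which makes the sugar donor, 4 were bright and 0 dim. The others of the pathway were Gfat2 at 11.98, Gnpnat at 10.81, mmy at 10.73 and Gfat1 at 7.05. Gfat1 and Gfat2 encode the enzyme of the first step. The list of metallothioneins and ferritins had 2 of 7 measured members bright, Fer1HCH and MtnA (12.54), and 1 dim, MtnB at 4.85. Fer2LCH, the ferritin light chain, was not bright.

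The genes that varied most between the 3 arrays had modest ranges. Of 5991 genes above the median level, the 12 with the largest SD had SDs of 0.36 to 0.41. The glutamate transporter gene dmGlut had 8.08, 7.38 and 8.10, with array 2 low. The polarity kinase gene aPKC had 7.99, 8.37 and 8.81, a range of 1.76-fold; its other probe set had a mean of 6.33, under the median over all genes, so its place here rests on the choice of probe set. The others were gzl, Esp, CG31445, CG3117, Obp44a, CG11825, CG8369, alphaTub85E, lncRNA:CR32368 and CG17839. Replicate 3 had the lowest value in 8 of these 12 and in 60 of the 100 most variable, against 3083 of all 5991 genes above the median. Among those 100 there was 1 member of the haemocyte list, srp. The 3′ minus 5′ difference of the GAPDH control probe sets, a measure that moves with RNA integrity, was 0.91, 0.95 and 1.12 on the 3 arrays. For the eIF4a controls it was 0.20, 0.27 and 0.31, and for the actin controls -0.01, 0.08 and 0.08. The part of RNA integrity in the variable genes was not tested.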

How the data were processed

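Gene expression was measured on 9 arrays, of which the 3 wild-type arrays were used. The authors deposited 1 value per probe set and array, on a log2 scale as read from the values. Per the submitters' processing notes, MAS5, RMA and Partek were used, with no role or version; the one behind the deposited values is not named in the sources used here. All sample columns mapped to a group (0 left over).

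Of 18952 probe sets, 183 were controls. The array's gene table listed 13647 with 1 gene, 402 with several and 4720 with none. Symbols were updated from RefSeq (Release 6 plus ISO1 MT), which also gave chromosome arms and lengths. The brightest probe set stood for each of 1094 genes with several. Levels, SDs and percentiles were computed in Python 3.11.15 with pandas 2.3.3 and numpy 2.4.6, figures were drawn with matplotlib 3.10.9, and the code was tested on simulated data. No test was made, because there was 1 group.

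The 48 lists (30 tissue, 18 class), the 14 added lists and the choice of arrays were made with earlier results of these data known. The rule for named genes took the 30 brightest genes outside the ribosomal list, up to 4 brightest and 2 dimmest members of each list, the 12 most variable genes above the median, Oga, sxc, and the yolk, dosage compensation and Hox genes. The other haemocyte, germline and paralogue genes were named after their values were seen, as were apolpp, EcR, CtsB, Cyp28a5 and the further members of the added lists. Alternatives were other choices of probe set, quantile normalization, median centring, percentiles over all probe sets and leaving out each array.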

Additional observations from a re-analysis of the deposited data

How the results depend on the processing

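No paired analysis was possible because 1 group was used. The choice of probe set moved the median gene level, although only 1094 of 11982 genes had several probe sets. The median of 7.49 became 6.98 with each gene's dimmest probe set and 7.24 with the median of its probe sets. It was 6.97 without the probe sets whose names end in _s_at or _x_at, a setting that also left out genes with no other probe set. The median of X-linked genes, 8.14, became 7.58, 7.84 and 7.69 in the same settings. Leaving out 1 array gave 7.48 to 7.53 for all genes and 8.11 to 8.12 for X-linked genes. Bright lists numbered 10, and 8 to 11 in the alternatives. Dim lists numbered 11, but 6 with percentiles over all probe sets that are not controls, where the glue, larval cuticle, midgut glycosidase, disc patterning and odorant-binding lists were no longer dim; elsewhere they numbered 10 to 12. With the dimmest or the median probe set the cell cycle and O-GlcNAc lists were no longer bright. Without the _s_at and _x_at probe sets translation elongation factors were no longer bright and glutathione transferases were. In the haemocyte list 10 to 13 members were bright in every alternative that kept the list whole, and 10 to 11 with 1 array left out. The bright threshold was taken anew in each alternative, so these counts do not refer to 1 fixed level. With the dimmest probe set Pxn fell to 7.30, yet 11 members were bright, and the 13 came with percentiles over all probe sets. Without the _s_at and _x_at probe sets 10 were bright, with some members not measured. Without Fer1HCH, an alternative chosen after seeing the data, 9 of the remaining 15 were bright. The median SD was 0.06 to 0.07 with 1 array left out. Of the 59 named genes checked, the levels of Pxn, Idgf3, regucalcin, CG5953, ATPsyngamma and aPKC moved by more than their SD with another choice of probe set. The levels of the other named genes were not checked in this way. Quantile normalization and median centring changed 0 list calls. A planned search of promoters for motifs was not run, since no promoter table was used here. Levels at or below the Tag controls are limited by background.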

Other observations

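Chromosome arms differed little in the share of bright genes: 23.7% of 1873 X-linked genes, 27.9% on 2L, 26.0% on 2R, 23.9% on 3L and 24.2% on 3R. The median level was 8.14 on X and 7.24 to 7.49 on these autosomal arms, and 21.4% of X-linked genes were dim. The small chromosome 4 had 22 of 65 genes bright (33.8%) and a median of 9.04. Genes are not replicates, and these shares are descriptions.

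Level varied with gene length. In the shortest 20% of genes the median was 5.69 and 37.0% were dim. The median was 9.05 in the next to longest group and 7.64 in the longest, where 21.0% were bright. Neighbouring genes tended to share a class: of the neighbours of bright genes 37.1% were bright, against 21.5% of the neighbours of other genes, over 10349 adjacent pairs in which both were measured.

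Probe sets that the array's table lists with no gene were mostly low: of 4720, 389 (8.24%) reached the bright threshold of genes and 2431 (51.5%) were at or below the dim threshold. Of the 1094 genes with several probe sets, 684 had probe sets over 1 log2 unit apart, and 38 had 1 in the bright and another in the dim range. Chosen after its values were seen, blanks, a gene of a double-stranded RNA-binding protein known from the testis, had 14.07, 14.08 and 14.13, while the testis list had a median of 4.79.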
